A study of Mus musculus with 2 samples.

Results

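The ABC (ATP-binding cassette) transporter family was described in liver RNA of NOG-TKm30 mice given acetoaceto-o-toluidide (AAOT) or left untreated. The members are the rows of the deposited mouse table whose gene symbol starts with Abc, a letter from a to g and a digit. The rule took 44 of 15526 gene symbols and used no measured value. Of the 50 symbols of this form in RefSeq, Abca12, Abca13, Abca15, Abca16, Abcb5 and Abcc8 were not analysed here. Tap1, Tap2 and Cftr are family members under other symbols and were kept apart as a list of their own.

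The AAOT group was 1 pool of liver RNA from 3 female mice that were 22 weeks old and received AAOT at 0.3% for 4 weeks, and the control group was 1 pool from 3 female mice of that age at 0%. AAOT is an anilide that carries o-toluidine, an aromatic amine, and its route is not stated here. Both groups have the genotype NOG-TKm30, so the controls carry the transgene as well. It is a mutant herpes simplex virus thymidine kinase, clone 30, driven by regulatory sequence of the mouse transthyretin gene, which is active in hepatocytes. NOG mice lack T, B and NK cells, and the labels name C57BL as the strain background beside the NOG design text. The pools held 16528533 reads assigned to genes for AAOT and 18801241 for control, with values in CPM (read counts divided by library depth and scaled by the authors). A pool averages its 3 animals, so there is no spread between mice, no test and no p-value, and the 95% interval beside a ratio covers counting error only. The tissue label was met by the markers of hepatocytes, with albumin (Alb) at 50830 CPM in the AAOT pool and 57688 CPM in the control pool, and the lymphocyte markers Cd3e, Cd79a, Ms4a1 and Nkg7 were not analysed here. Of the erythroid markers, Hbb-bs had 102 reads in the AAOT pool and 0 in the control pool. Hba-a1 and Alas2 had ratios of 0.972 (0.922 to 1.03) and 0.954 (0.814 to 1.12). Whether the pools match in genetic background was not tested.

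ABC proteins use ATP to carry substrates across membranes, and in hepatocytes their site decides where a substrate goes. Exporters of the canalicular membrane move bile salts, phospholipid, sterols and conjugates into bile, while exporters of the sinusoidal membrane return conjugates and bile salts to blood. Subfamily D members bring fatty acyl-CoAs into peroxisomes, several subfamily B members sit in mitochondria, and subfamilies E and F have no membrane domain and act on ribosomes. Expression of the exporters is known to respond to the nuclear receptors CAR, PXR, FXR and LXR and to NRF2.

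Most of the family was at close to equal levels in the pools, and a few members at defined membranes accounted for the larger ratios. Of the 44 members, 32 had a mean over both pools of at least 10 CPM, the floor used for counting. A gene was counted as higher or lower when (AAOT + 1)/(control + 1), in CPM, was at least 2-fold or at least 1.5-fold. At 2-fold 1 of 32 members was higher (Abcc4), against 0.773% of the 7761 genes above the floor, and 0 were lower, against 0.425%. At 1.5-fold 2 of 32 were higher, Abcc4 among them, against 2.07% of genes, and Abcg5 and Abcg8 were lower (2 of 32, against 1.39% of genes). The median log2 ratio of the 32 members was 0.03, beside -0.02 for all genes above the floor. In all, 18 of the 32 members had a ratio above 1, where 46.4% of all genes above the floor did. The counting interval left out equality for 19 of 32 members, and for 39.5% of all genes above the floor, a share that depends on read depth. The ratio was within 1.25-fold of equality for 24 of the 32. The share of all genes within that size was not counted, so this does not set the family apart from other genes.

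**Figure D1:**
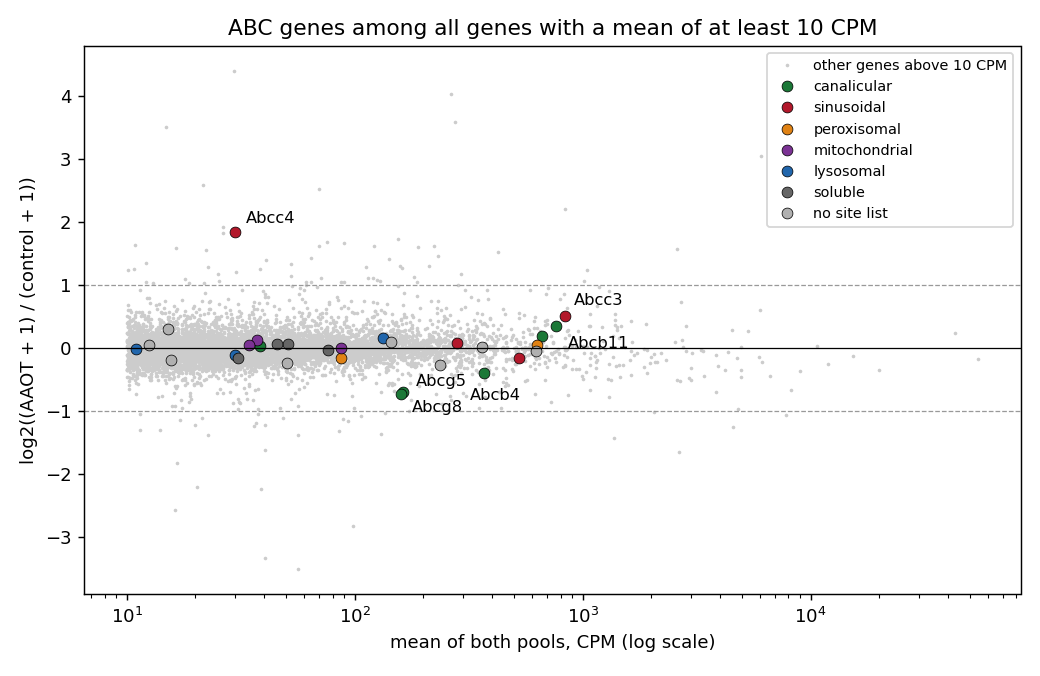
Each point is a gene with a mean of at least 10 CPM, with the mean of both pools on the x axis (CPM, log scale) and the log2 ratio, AAOT over control after adding 1 CPM, on the y axis. The 30 ABC genes shown are coloured by site, dashed lines mark 2-fold, and Abcc4 is the single ABC gene outside them, at 1.83.

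Summed over all 44 members, the family was at 6831 CPM in the AAOT pool and 6561 CPM in the control pool, a ratio of 1.04 (1.03 to 1.05). The 10 most abundant members made up 80.1% of the AAOT sum. CPM is not divided by gene length, so levels of different genes were set side by side per kilobase of the principal GENCODE transcript. On that scale Abcc3 was highest in the AAOT pool, at 196 CPM per kilobase, followed by Abcd3 at 183 and Abcb11 at 169. In the control pool Abcd3 was highest at 177 CPM per kilobase, followed by Abcc3 at 138 and Abcb11 at 134. The bile salt exporter Abcb11 and the conjugate exporter Abcc3 were thus among the most abundant family members in both pools, and Abcd3, the major peroxisomal member, was close to them.

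**Figure D2:**
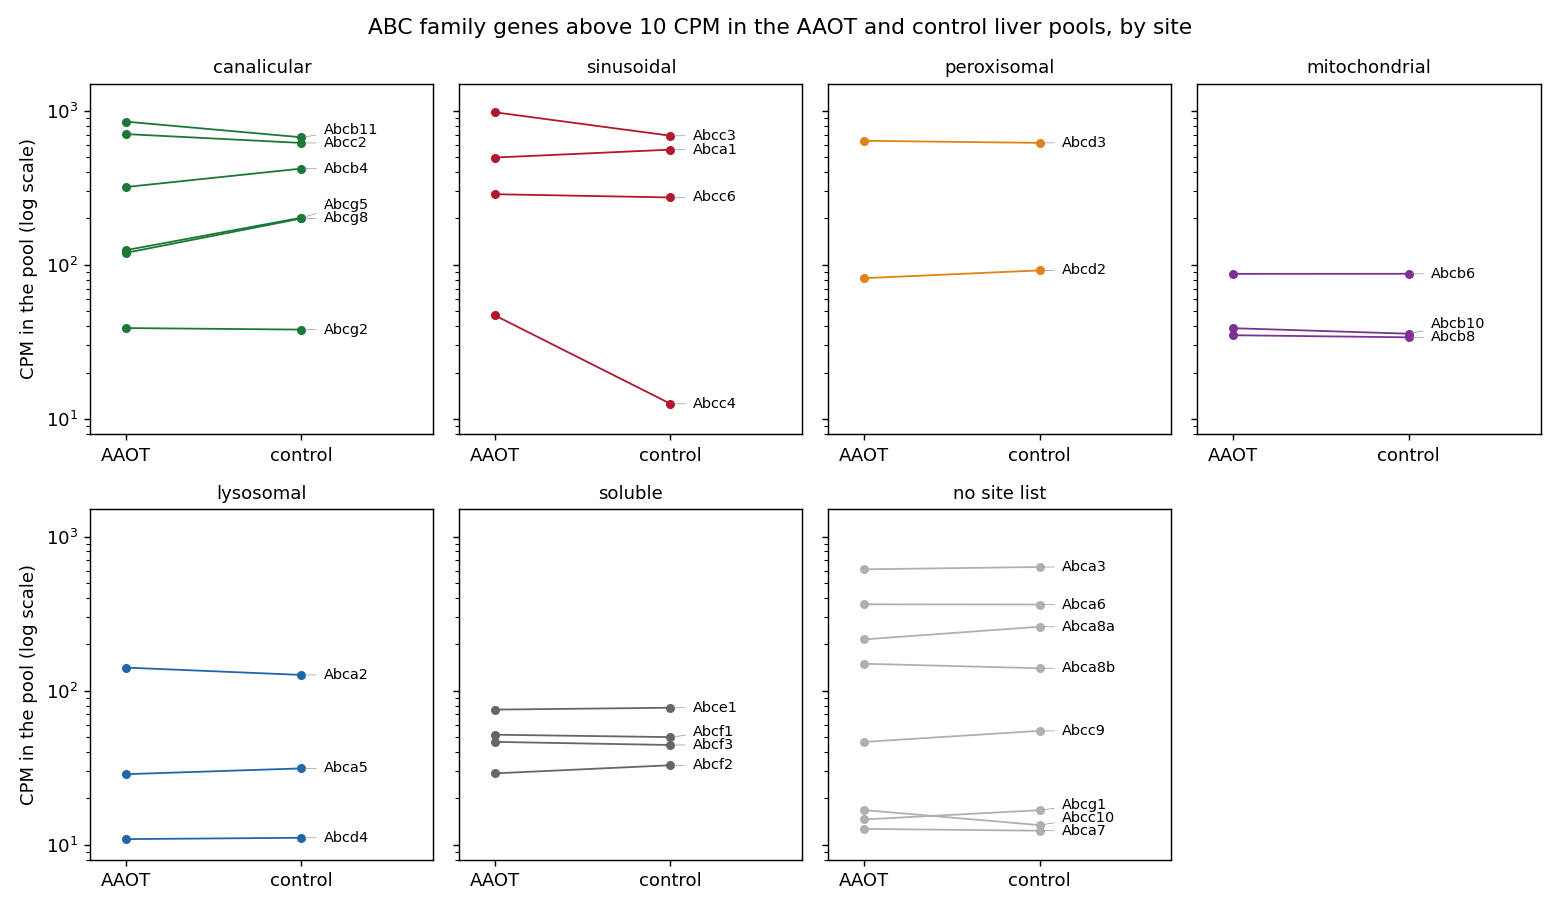
CPM (log scale) of 30 of the ABC genes above the floor in the AAOT pool and the control pool, 1 panel per site. Each line is a gene and joins its single value in each pool; Abcc4 has the steepest line, at 47.1 CPM in AAOT and 12.5 CPM in control, and the lines of Abcg5 and Abcg8 run together.

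The sinusoidal exporters were higher as a sum, through Abcc4 and Abcc3. Abcc4 (Mrp4, chromosome 14, 118482692 to 118707856, minus strand, RefSeq on GRCm38) exports conjugates, cyclic nucleotides and, together with glutathione, bile salts into sinusoidal blood. It was at 47.1 CPM in the AAOT pool, from 789 reads, and 12.5 CPM in the control pool, from 233 reads. That is 3.76-fold higher (3.24 to 4.37), rank 10 from the highest of the 7761 genes. Abcc3 (Mrp3, chromosome 11, 94343295 to 94393017, minus strand), which exports glucuronides to blood, was at 978 CPM in the AAOT pool and 689 CPM in the control pool. Its ratio was 1.42 (1.39 to 1.45), short of 1.5-fold, and ranked 222 from the highest. In CPM its difference between pools, 289.9, was larger than that of Abcc4, 34.6.

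The other sinusoidal members differed less. Abcc6, an ATP release transporter whose loss causes ectopic mineralisation, was at 287 CPM in the AAOT pool and 274 CPM in the control pool, a ratio of 1.05 (1.01 to 1.09). Abca1, which loads cholesterol and phospholipid onto apolipoprotein A-I, was at 497 CPM in the AAOT pool and 559 CPM in the control pool, 1.13-fold lower (1.09 to 1.16). Abcc1 and Abcc5 stayed below the floor, with 56 and 93 reads in the AAOT pool and 66 and 94 reads in the control pool. The 6 sinusoidal genes summed to 1819 CPM in the AAOT pool and 1543 CPM in the control pool, a ratio of 1.18 (1.16 to 1.20). Their median log2 ratio over the 4 above the floor was 0.29, but 0.09 at a floor of 1 CPM and 0.07 at 50 CPM. The read ratio of Abcc4 to Abcc3 within a pool was 0.0482 in the AAOT pool and 0.0182 in the control pool, so Abcc4 remained the minor of these exporters by reads in both.

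The bases before the start of Abcc4 are shown because it has the highest ratio of the family. The window is chr14:118706220-118706469 (GRCm38, sequence from RefSeq), printed on the minus strand so that it runs 5′ to 3′ toward the gene and ends at the base before the start at 118706219, where the GENCODE gene also ends. RefSeq extends the gene to 118707856, so the window lies inside the RefSeq gene and may be transcribed in a longer model. RefSeq gives a further start at 118676931, whose window holds 1 antioxidant core and 0 GC boxes. Capitals mark the letters TGACNNNGC, the core of the antioxidant response element that NRF2 binds, and GGGCGG, the GC box, each on either strand.
Abcc4: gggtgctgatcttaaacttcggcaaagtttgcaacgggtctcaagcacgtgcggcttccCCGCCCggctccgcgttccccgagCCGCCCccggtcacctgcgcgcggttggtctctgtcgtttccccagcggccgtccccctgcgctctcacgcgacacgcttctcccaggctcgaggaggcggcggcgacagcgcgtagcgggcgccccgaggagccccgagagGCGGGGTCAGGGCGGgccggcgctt
The capitals hold 3 GC boxes and 1 antioxidant core, the last of which adjoins a GC box without sharing bases with it. Left unmarked are 2 matches to GCGTG, the xenobiotic response element core, and 1 to CACGTG, the E-box. GCGTG was present in 32.4% of windows of all genes and in 14 of the 40 member windows, and CACGTG in 7.15% and in 5 of the 40. The window is 72% G and C. In the RefSeq windows of 250 bases before to 50 bases after a start, TGACNNNGC was present in 12.4% of 32851 windows of all genes and in 7 of the 40 windows of the 33 members that have one. GGGCGG was present in 35.7% of all windows and in 21 of the 40. These are letter matches and say nothing of binding.

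Of the 6 canalicular exporters above the floor, Abcb11 and Abcc2 were higher, Abcb4, Abcg5 and Abcg8 lower and Abcg2 level by their counting intervals, and the sum of the list was level. Abcb11 (BSEP, chromosome 2, 69238282 to 69342616, minus strand), the main bile salt exporter, was at 851 CPM in the AAOT pool and 673 CPM in the control pool, a ratio of 1.26 (1.23 to 1.29). Abcc2 (Mrp2, chromosome 19, 43782308 to 43838332, plus strand), which exports bilirubin and drug conjugates, was at 706 CPM in the AAOT pool and 618 CPM in the control pool, a ratio of 1.14 (1.11 to 1.17). Both intervals lay above equality and both ratios below 1.5-fold.

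Abcb4, Abcg5 and Abcg8 were lower. Abcb4 (Mdr2, chromosome 5, 8893614 to 8959226, plus strand), the phosphatidylcholine floppase, was at 320 CPM in the AAOT pool and 422 CPM in the control pool, 1.32-fold lower (1.27 to 1.36). Abcg5 (chromosome 17, 84658174 to 84683011, minus strand) and Abcg8 (chromosome 17, 84676302 to 84700333, plus strand) encode the partners of the sterol exporter, which works only as a pair. Abcg5 was at 124 CPM in the AAOT pool and 202 CPM in the control pool, 1.63-fold lower (1.54 to 1.72). Abcg8 was at 120 CPM in the AAOT pool and 200.1 CPM in the control pool, 1.67-fold lower (1.59 to 1.77). By ratio they ranked 85 and 70 from the lowest of the 7761 genes. The reads of Abcg8 per read of Abcg5 were 0.961 in the AAOT pool and 0.988 in the control pool, a ratio between pools of 0.972 (0.901 to 1.05) that held equality.

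Abcg2 (Bcrp), an exporter of sulfates, urate and many drugs, was at 38.9 CPM in the AAOT pool and 38.0 CPM in the control pool, with a ratio of 1.02 (0.918 to 1.14). The P-glycoprotein genes were low. Abcb1a had 64 reads in the AAOT pool and 70 reads in the control pool, and Abcb1b had 1 read in each. They share sequence with each other and with Abcb4, with 83.0% and 81.7% of their 50-base stretches found in no other gene's transcripts, so their low reads could be split differently by another counting. The value for Abcb4 was 96.6%. The 8 canalicular genes summed to 2163 CPM in the AAOT pool and 2157 CPM in the control pool, a ratio of 1.003 (0.989 to 1.02), and the median log2 ratio of the 6 above the floor was -0.18. That median was 0.02 at a floor of 1 CPM and -0.40 at 50 CPM. The read ratio of Abcb11 to Abcb4, the bile salt exporter to the phospholipid floppase, was 2.66 in the AAOT pool and 1.60 in the control pool. It differed 1.67-fold between pools (1.60 to 1.74 as a large-sample counting interval). This restates the ratios of the genes given above, which went opposite ways, and is not a separate result.

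**Figure D3:**
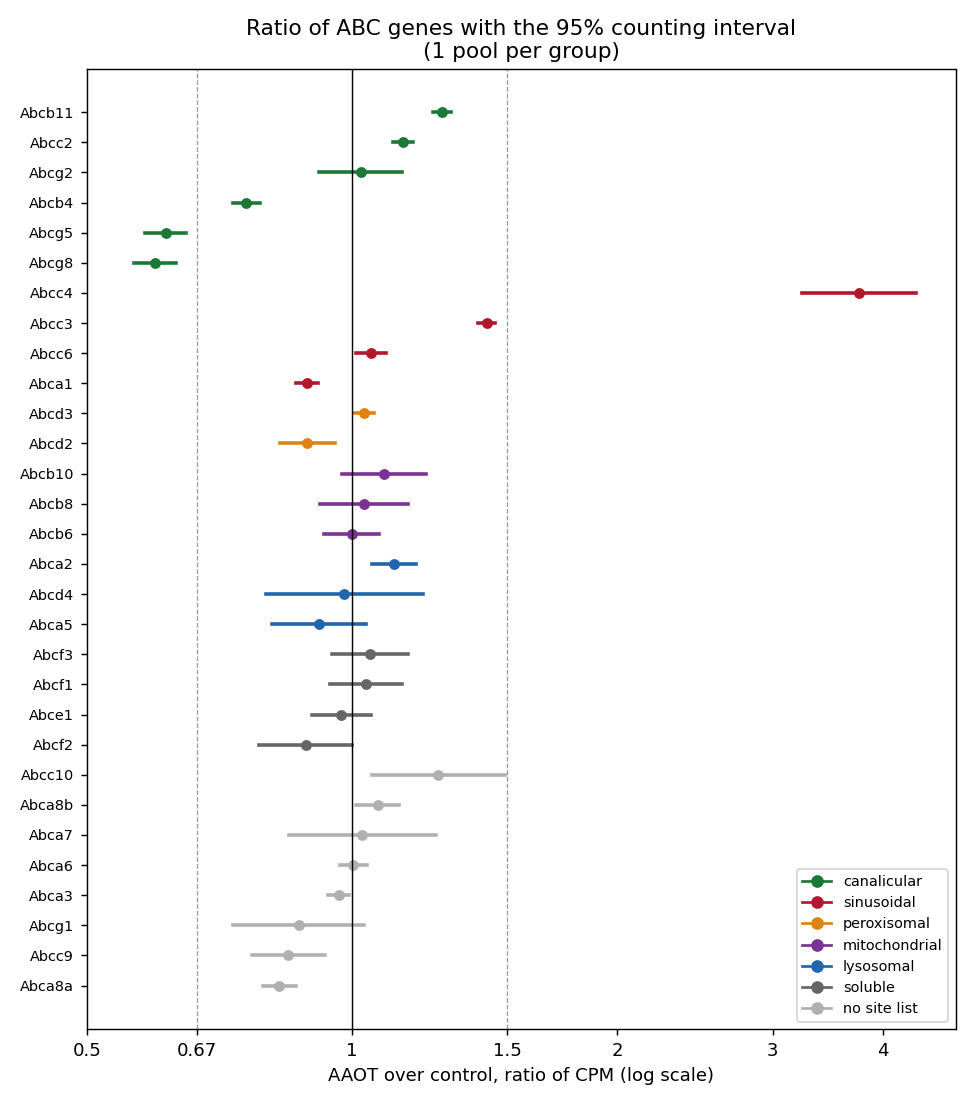
AAOT over control as a ratio of CPM (log scale) for 30 of the ABC genes above the floor, grouped and coloured by site, with bars for the 95% counting interval of 1 pool per group. Dashed lines mark 1.5-fold either way; Abcc4 lies right of them at 3.76, and Abcg5 and Abcg8 left of them at 0.614 and 0.597.

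Abcg5 and Abcg8 lie head to head, which is why the bases between their starts are shown. The start of Abcg5 at 84683011 on the minus strand and a start of Abcg8 at 84683121 on the plus strand leave 109 bases between them, chr17:84683012-84683120 (GRCm38, RefSeq), printed on the plus strand so that Abcg8 begins just after the last base. Capitals mark the letters TATAAA, the TATA box, on either strand.
Abcg5-Abcg8: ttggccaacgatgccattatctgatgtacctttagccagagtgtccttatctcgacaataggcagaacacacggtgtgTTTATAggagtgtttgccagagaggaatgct
The marked stretch reads TATAAA on the minus strand, the strand of Abcg5, where its first base is at -84 from the start. On the strand of Abcg8 it reads TTTATA, at -31. It is a letter match, and use of it as a TATA box by either gene was not tested. TATAAA was found in 13.6% of all promoter windows and in 7 of the 40 windows of members, where this site counts for both genes. RefSeq also gives Abcg8 a start at 84676302, inside Abcg5, and exons of the genes overlap on opposite strands in GENCODE. The libraries were directional, but use of strand in counting is not stated, so reads in the overlap could have been assigned to either gene.

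The bases before Abcb11 are shown as those of the highest canalicular exporter and a known FXR target, chr2:69342617-69342866 (GRCm38, RefSeq), on the minus strand and ending at the base before the start. Capitals mark the nuclear receptor core AGGTCA on either strand, a letter match found in 16.3% of all windows and in 7 of the 40 windows of members.
Abcb11: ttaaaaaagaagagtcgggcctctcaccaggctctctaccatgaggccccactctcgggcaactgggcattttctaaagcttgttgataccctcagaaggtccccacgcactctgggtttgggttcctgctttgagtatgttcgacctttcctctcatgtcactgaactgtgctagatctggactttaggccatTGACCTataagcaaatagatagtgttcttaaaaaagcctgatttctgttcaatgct
The Abcb11 window is 46.4% G and C, below that of Abcc4. FXR itself (Nr1h4) was at 85.4 CPM in the AAOT pool and 87.6 CPM in the control pool, a ratio of 0.975 (0.908 to 1.05), and its target Nr0b2 was at 67.5 CPM in the AAOT pool and 66.2 CPM in the control pool.

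Genes that work beside the canalicular exporters were mixed, with 8 of 12 above the floor at a ratio above 1, where 46.4% of all genes were, and a median log2 ratio of 0.07. At 2-fold 1 of the 12 was higher, against 0.773% of all genes above the floor, and 0 were lower, against 0.425%. The higher gene was the water channel Aqp8, at 158 CPM in the AAOT pool and 72.5 CPM in the control pool, 2.17-fold higher (2.03 to 2.32). Atp8b1, the flippase that returns aminophospholipids to the inner canalicular leaflet, was at 69.7 CPM in the AAOT pool and 92.6 CPM in the control pool, 1.33-fold lower (1.23 to 1.43). Tmem30a, the subunit that Atp8b1 needs to leave the endoplasmic reticulum, was at 226 CPM in the AAOT pool and 301 CPM in the control pool, 1.34-fold lower (1.28 to 1.39). The flippase genes were therefore lower by ratios close to that of the floppase gene Abcb4. Radixin (Rdx), which anchors Abcc2 to actin at the canaliculus, was at 287 CPM in the AAOT pool and 297 CPM in the control pool. Slc51b, a subunit of the sinusoidal bile acid exporter, had 0 reads in the AAOT pool and 2 reads in the control pool, and Slc51a was not analysed here.

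**Figure D4:**
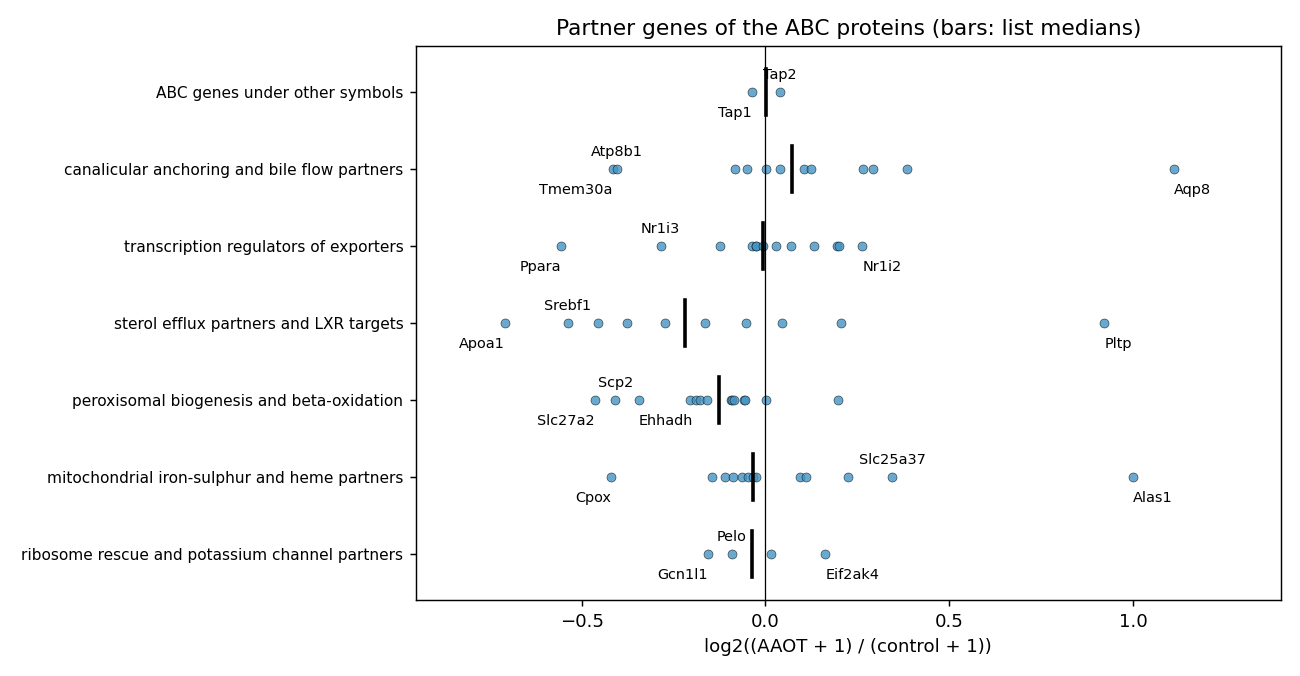
Log2 of AAOT over control, after adding 1 CPM, for genes above the floor in 7 lists of partners of ABC proteins, with a vertical bar at each list's median and names for the genes farthest from 0. Aqp8 lies farthest to the right at 1.11, and Apoa1 farthest to the left at -0.71.

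The peroxisomal members Abcd2 and Abcd3 were near equality. Abcd2, an importer of very long chain acyl-CoAs, was at 81.9 CPM in the AAOT pool and 92.1 CPM in the control pool, 1.12-fold lower (1.05 to 1.21). Abcd3 (PMP70), which takes up branched and long chain dicarboxylic acyl-CoAs and bile acid precursors, was at 639 CPM in the AAOT pool and 619 CPM in the control pool, a ratio of 1.03 (1.01 to 1.06).

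Peroxisomal biogenesis and beta-oxidation genes had mostly small ratios. Of 14 above the floor, 2 had a ratio above 1, where 46.4% of all genes did, and the median log2 ratio was -0.13. At 1.5-fold 0 of the 14 were counted, where 2.07% of all genes were higher and 1.39% lower. The 2, named after their values were seen, were Acox2 at 1.15 and Pex5 at 1.0003. Slc27a2, an acyl-CoA synthetase for very long chain and bile acids, was at 951 CPM in the AAOT pool and 1311 CPM in the control pool, 1.38-fold lower (1.35 to 1.41). The sterol carrier thiolase gene Scp2 was 1.33-fold lower (1.31 to 1.35) and the bifunctional enzyme gene Ehhadh 1.27-fold lower (1.24 to 1.30). Pex19, which carries ABCD proteins to the peroxisome, was at 106 CPM in the AAOT pool and 123 CPM in the control pool.

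The mitochondrial members Abcb6, Abcb8 and Abcb10 were near equality, with counting intervals that held 1. Abcb10, which stabilises the iron importer Slc25a37 in erythroid cells, was at 38.8 CPM in the AAOT pool and 35.8 CPM in the control pool, a ratio of 1.09 (0.973 to 1.21). Abcb8 was at 35.0 CPM in the AAOT pool and 33.9 CPM in the control pool. Abcb6, a porphyrin transporter, was at 87.42 CPM in the AAOT pool and 87.51 CPM in the control pool, though only 9.70% of its 50-base stretches are its own, and the gene model Gm29253 on the same strand shares the rest.

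Some of the heme and iron-sulphur genes around these transporters held larger ratios than the transporters. For 9 of the 13 above the floor the counting interval held 1, and the 3 farthest from 0 are named here. Alas1, the first and rate-limiting enzyme of heme synthesis, was at 380.2 CPM in the AAOT pool and 190 CPM in the control pool. It was the only gene of this list counted at 1.5-fold, where 2.07% of all genes above the floor were higher and 1.39% lower. Cpox, a later enzyme of the same pathway, was at 165 CPM in the AAOT pool and 222 CPM in the control pool, 1.34-fold lower (1.28 to 1.41). Slc25a37 was at 67.5 CPM in the AAOT pool and 52.9 CPM in the control pool, a ratio of 1.27 (1.17 to 1.39). The median log2 ratio of 13 genes above the floor was -0.03.

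Lysosomal and soluble members above the floor differed little, while the lysosomal Abcb9, below it, had a ratio of 1.61 (1.08 to 2.43) from few reads. Abca2, a lysosomal member linked to sterol handling, was at 141 CPM in the AAOT pool and 126 CPM in the control pool, a ratio of 1.12 (1.05 to 1.18). Abca5 was at 28.7 CPM in the AAOT pool and 31.3 CPM in the control pool, and Abcd4, which takes part in cobalamin release from lysosomes, at 10.9 CPM in the AAOT pool and 11.1 CPM in the control pool, close above the floor. Abce1, the ribosome recycling factor, was at 75.3 CPM in the AAOT pool and 77.4 CPM in the control pool, a ratio of 0.972 (0.901 to 1.05). Abcf1 was at 51.7 CPM in the AAOT pool and 49.9 CPM in the control pool, and Abcf3 at 46.5 CPM in the AAOT pool and 44.4 CPM in the control pool. Abcf2 was at 29.0 CPM in the AAOT pool and 32.8 CPM in the control pool, with an interval of its ratio of 0.784 to 0.999 that just left out equality. Of the ribosome rescue and potassium channel partners, Gcn1 (listed as Gcn1l1), Pelo and Eif2ak4 had log2 ratios of -0.16, -0.09 and 0.16. At 1.5-fold 0 of 4 above the floor were counted, where 2.07% of all genes were higher and 1.39% lower.

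Members with no site list were mostly lipid transporters of subfamily A. Abca3, known for loading phospholipid into lamellar bodies of the lung, was at 612 CPM in the AAOT pool and 634 CPM in the control pool, 1.04-fold lower (1.01 to 1.06). Abca6 was at 363 CPM in the AAOT pool and 362 CPM in the control pool. Abca8a and Abca8b, neighbours on chromosome 11, went opposite ways. Abca8a was at 215 CPM in the AAOT pool and 260 CPM in the control pool, 1.21-fold lower (1.16 to 1.26), while Abca8b was at 149 CPM in the AAOT pool and 140 CPM in the control pool, a ratio of 1.07 (1.01 to 1.13). Of their 50-base stretches, 98.1% in Abca8a and 98.6% in Abca8b are found in no other gene. Abca7 was at 12.7 CPM in the AAOT pool and 12.3 CPM in the control pool.

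Abcc9, the sulfonylurea receptor subunit of a potassium channel found in vascular and stellate cells, was at 46.4 CPM in the AAOT pool and 54.8 CPM in the control pool, 1.18-fold lower (1.07 to 1.30). In the same pools the 6 stellate cell markers summed to 430.2 CPM for AAOT and 491 CPM for control. Their log2 ratios were below 0 in 4 of 4 above the floor, where 46.4% of all genes had a ratio above 1. The part of stellate cells in the Abcc9 value was not tested. In bulk RNA, fewer cells of a type and less RNA per cell cannot be told apart. Abcg1, a sterol exporter of macrophages and other cells, was at 14.6 CPM in the AAOT pool and 16.7 CPM in the control pool, a ratio of 0.871 (0.733 to 1.03). The 6 Kupffer cell and macrophage markers summed to 294 CPM for AAOT and 273 CPM for control, with log2 ratios above 0 in 4 of 4 above the floor. The 5 sinusoidal endothelial markers were about level, with sums of 296 CPM for AAOT and 299 CPM for control. Their log2 ratios were below 0 in 4 of 4 above the floor, but the counting interval held equality for 3 of these. Lyve1, the marker below the floor, went the other way, with a ratio of 1.57 (1.25 to 1.98). The 5 cholangiocyte markers were low, at 35.3 CPM for AAOT and 44.8 CPM for control, with Krt7 at 9 reads in AAOT and 14 reads in control. Abcc10, an exporter of lipophilic compounds, was at 16.8 CPM in the AAOT pool and 13.4 CPM in the control pool, a ratio of 1.25 (1.05 to 1.49).

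Of the 12 members below the floor, 6 had at least 100 reads over both pools. Besides Abcb1a, Abcc1 and Abcc5, these were Abca9, Abcb9 and Abcg3. Abca9 had 164 reads in the AAOT pool and 125 reads in the control pool, a ratio of 1.46 (1.15 to 1.85), and Abcb9, a lysosomal peptide transporter, had 64 reads in the AAOT pool and 44 reads in the control pool. Abcg3 had 61 reads in the AAOT pool and 68 reads in the control pool. The other 6 (Abca4, Abca14, Abca17, Abcb1b, Abcc12 and Abcg4) had between 2 and 20 reads over both pools, with wide counting intervals that all held equality.

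By subfamily, the C members summed higher and the G members lower. Subfamily C was at 2092 CPM in the AAOT pool and 1671 CPM in the control pool, a ratio of 1.25 (1.23 to 1.27). Of its members above the floor, 5 of 6 had a ratio above 1, where 46.4% of all genes did. Subfamily G was at 301 CPM in the AAOT pool and 461 CPM in the control pool, 1.53-fold lower (1.48 to 1.59), of which Abcg5 and Abcg8 made up most reads. Subfamily A was at 2029 CPM in the AAOT pool and 2132 CPM in the control pool, 1.05-fold lower (1.04 to 1.07). Subfamilies B and D had sum ratios of 1.06 (1.05 to 1.08) and 1.04 (1.01 to 1.06), and subfamilies E and F had intervals that held equality. The members under other symbols were level as well, with the antigen peptide transporters Tap1 at 24.4 CPM in the AAOT pool and 25.0 CPM in the control pool and Tap2 at 47.3 CPM in the AAOT pool and 45.9 CPM in the control pool. Cftr, the chloride channel of bile duct cells, had 6 reads in each pool.

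Of 10 sterol efflux partners and LXR targets above the floor, 3 had a ratio above 1, where 46.4% of all genes did, and the median log2 ratio was -0.22, beside -0.02 for all genes. At 1.5-fold 1 of the 10 was lower, against 1.39% of all genes above the floor, and 1 higher, against 2.07%. The lower gene was Apoa1, the acceptor of cholesterol from Abca1, at 2907 CPM in the AAOT pool and 4753 CPM in the control pool, 1.63-fold lower. Srebf1 was at 364 CPM in the AAOT pool and 529 CPM in the control pool. The higher gene was Pltp, the phospholipid transfer protein, at 42.3 CPM in the AAOT pool and 21.9 CPM in the control pool, 1.94-fold higher (1.71 to 2.19). The HDL receptor Scarb1, named after its value was seen, was at 228 CPM in the AAOT pool and 313 CPM in the control pool, 1.37-fold lower (1.32 to 1.43).

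Of the 13 genes listed as transcription regulators of exporters, among them Keap1, which is not itself a transcription factor, 0 were counted at 1.5-fold. Of all genes above the floor, 2.07% were higher and 1.39% lower at that size. The median log2 ratio of the list was -0.007, beside -0.02 for all genes, and its sum was 1.08-fold lower (1.07 to 1.09). The counting interval lay above equality for 4 of the 13, below it for 3 and held it for 6. Ppara was the farthest from 0, at 375 CPM in the AAOT pool and 552 CPM in the control pool, 1.47-fold lower (1.42 to 1.52). CAR (Nr1i3) was at 109 CPM in the AAOT pool and 133 CPM in the control pool, and PXR (Nr1i2) at 67.5 CPM in the AAOT pool and 56.1 CPM in the control pool. NRF2 (Nfe2l2), named after its value was seen, was at 73.6 CPM in the AAOT pool and 67.0 CPM in the control pool, a ratio of 1.10 (1.01 to 1.19). These are RNA levels and do not measure the activity of the regulators.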

How the data were processed

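Liver RNA was depleted of ribosomal RNA and made into directional libraries, per the labels' protocols. The submitters' processing notes list Trimmomatic 0.38, Bowtie2, RSEM, edgeR and the build mm10, with no role for any of them, and name no annotation. The authors deposited CPM (read counts over library depth) for 2 columns, matched to the pools by the code in the sample titles. Column totals were 987690 CPM for AAOT and 1012463 CPM for control, so the authors' CPM hold a scaling factor of 1.012 and 0.988. All values (100%) were whole multiples of the CPM of 1 read, within a relative tolerance of 1e-06, which gave the reads. No count model was run, since it needs replicate libraries. The precursor ribosomal transcript Rn45s took 4.70% of AAOT and 3.89% of control reads.

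Log2 ratios use an added constant of 1 CPM and a floor of 10 CPM on the mean. Folds are plain ratios of CPM, with exact Clopper-Pearson 95% intervals conditional on the sum of reads. These treat reads as independent molecules. Ratios between genes have a normal interval on the log scale. The members and lists were chosen with earlier results of these data known. Some members are not reported here. Text names the other members above the floor, those below with at least 100 reads, and per partner list the counted genes and the 3 farthest from 0, other genes being marked or used as context. Gene positions and promoters are RefSeq (GRCm38.p6) and lengths and 50-base stretches GENCODE M21. The functions were tested on simulated reads. Alternatives were 5 scalings, constants of 0.1 and 5 CPM, floors of 1 and 50 CPM and none, and a 4-fold size. Tools were scipy 1.17.1, pandas 2.3.3, matplotlib 3.10.9 and numpy 2.4.6 under Python 3.11.15.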

Additional observations from a re-analysis of the deposited data

How the results depend on the processing

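Under the 5 other scalings and both other added constants the counts of ABC genes past 2-fold and 1.5-fold stayed at 1 higher and 0 lower, and at 2 higher and 2 lower. With a floor of 50 CPM, which leaves 20 members and drops Abcc4, 0 members were higher at 2-fold and 0 at 1.5-fold, and at a size of 4-fold 0 members were higher. The sign of the ratio held under all 5 scalings for 28 of 32 members, the exceptions being Abca6, Abcb6, Abcd4 and Abce1. Leaving Rn45s out of the column totals gave log2 ratios of -0.003 for Abca3 and 0.09 for Abcd3, beside -0.05 and 0.05 as reported. These values lay outside the counting intervals, so ratios close to 1 with narrow intervals depend on the scaling. The log2 ratio of Abcc4 was 1.57 with an added constant of 5 CPM. Site medians rest on few genes and moved with the floor. The lysosomal median log2 ratio was 0.16 at 50 CPM. No paired analysis was possible because each group has 1 library. With 1 pool per group, neither mouse variation nor library preparation can be separated from treatment. The members under 100 reads had wide counting intervals that all held equality.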
